A study of Drosophila melanogaster with 4 samples.

Results

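The Antennapedia complex is the gene cluster on chromosome arm 3R that holds lab, pb, Dfd, Scr and Antp, the Hox genes that set the identity of the head and the anterior thorax of the fly, together with ftz, a homeodomain gene of the pair-rule class. Hox proteins are homeodomain transcription factors, and each is used along a limited stretch of the body axis. Abd-B, the protein mapped here, belongs to the other Hox cluster, the bithorax complex, and sets the identity of the most posterior segments. In the textbook picture of posterior prevalence, more posterior Hox proteins override or repress more anterior Hox genes.

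Chromatin immunoprecipitation followed by sequencing (ChIP-seq) had been done on wandering L3 larvae of Drosophila melanogaster, the stage just before pupation. There were 2 ChIP libraries, made with a rabbit polyclonal antibody against GFP, and 2 libraries of input DNA. All came from the strain Abd-B-GFP with the genotype w; PBac{y[+]-attP-3B}VK00037, in which an added copy of the Abd-B gene ends in GFP instead of its stop codon, and sex is given as unknown. The labels give no tissue below the larva, so a peak can come from any of its tissues, and the tagged gene is a transgene, not an edit of the native locus. The collection protocol in the labels names the stock y; bw cn sp, which is not the strain label, and all titles carry the word vMock without saying what the mock was.

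The data are 1 deposited peak list of 2949 peaks on FlyBase release 5, each with a position and the score that the authors' caller gave it. The list has no value per library, so no spread between replicates, depth or fold over input is known. No test over samples could be made, comparisons below are descriptions of this list, and absence of a peak is not absence of binding. Peaks were taken as belonging to the Antennapedia complex when their midpoint lay on 3R from position 2480000 to 2830000, the 350 kb from lab to Antp. These were 8 of the 694 peaks of 3R. The nearest peaks left outside ran from 2299969 to 2300463 (score 21.3) and from 2862925 to 2863499 (score 23.7). Genes were placed beside the peaks from the RefSeq gene table, which is on release 6, with the constant offset of 4174278 bases between the releases of 3R, and no release 6 position is printed.

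Most peaks of the complex lay at 2 of its 6 members. Of the 8 peaks, 7 lay inside or within 5 kb of Scr or Antp, the genes of the labial and prothoracic segments and of the thorax. Both genes are long, spanning 26.9 kb (Scr) and 103 kb (Antp) of the 350 kb before the flanks are added. Of the 7 peaks, 2 were over 7SL RNA genes next to Scr. The other 4 members, lab, pb, Dfd and ftz, had no peak inside them or within 10 kb. The 2 highest scores, 76.4 and 74.6, belonged to peaks just beyond the lower and the upper end of Antp. These were ranked 6 and 7 among all peaks of 3R.

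**Figure D1:**
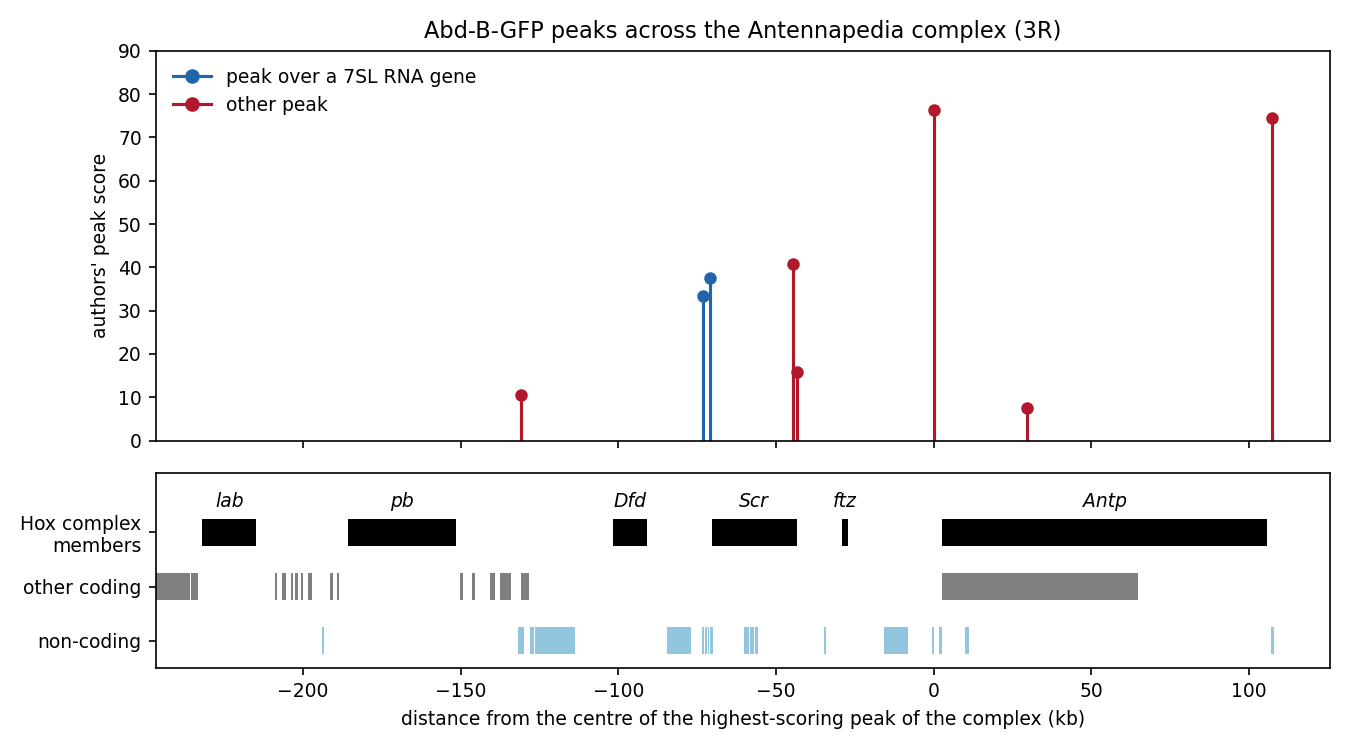
Peaks of the Antennapedia complex as stems at their centre, with the authors' score on the vertical axis and, on the horizontal axis, the distance in kb from the centre of the highest-scoring peak. Gene extents are drawn below, and the stems at 76.4 and 74.6 flank Antp while no stem lies at lab, pb, Dfd or ftz.

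Antp, which directs the identity of thoracic segments, spans 103 kb and had 3 peaks. The first ran from 2718854 to 2719488, was 635 bp wide and scored 76.4. It ended 2.49 kb below the lower end of Antp and overlapped the non-coding gene lncRNA:CR45559 by 331 of its 545 bp. The second Antp peak lay inside the gene, from 2748839 to 2749038. At 200 bp and a score of 7.63 it was at the low end of the arm on both counts, with rank 663 of 694 by score, and the gene CG46458 is annotated over the same bases. The third ran from 2826325 to 2826985, was 661 bp wide and scored 74.6. It began 1.37 kb beyond the upper end of Antp and lay with all of its 661 bp in lncRNA:CR45899. Antp is known to be transcribed towards lower coordinates from a distal and an internal promoter, so its upper end is the side of its distal promoter. Both strong peaks of Antp therefore lay outside the annotated gene, over non-coding genes, and the only peak inside it was weak.

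Scr, which specifies the labial segment and the first thoracic segment and is needed for the salivary glands, spans 26.9 kb and had 4 peaks in 2 pairs, at opposite ends of the gene. At the upper end, a peak from 2674171 to 2674719 was 549 bp wide, scored 40.9 and lay wholly inside Scr. Its midpoint was 1.26 kb from the upper end of the gene. A peak from 2675639 to 2675954 scored 15.9, was 316 bp wide and straddled that end, with 65 bp inside Scr. The members of this pair were 919 bp apart. Scr, too, is transcribed towards lower coordinates, so this pair lay at the side of its promoter, although the gene table used here gives no strand.

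The lower pair of Scr lay outside the gene and over genes of another kind. The peak from 2646002 to 2646309 was 308 bp wide, scored 33.4 and overlapped 7SLRNA:CR42652 by 150 of its 299 bp. The peak from 2648064 to 2648573 was 510 bp wide, scored 37.6, covered all 299 bp of 7SLRNA:CR32864 and ended 268 bp below Scr. 7SL RNA is the RNA of the signal recognition particle and is made by RNA polymerase III, as are tRNAs. The table lists 2 such genes in the whole genome, and both lay under these peaks. The genes tRNA:Lys-TTT-2-1 to tRNA:Lys-TTT-2-4 lie in the same stretch, between 111 and 480 bp from the nearer peak, and none of them was overlapped. Of the 79 tRNA genes of 3R, 1 was overlapped by a peak, outside the complex. With both 7SL RNA genes inside the complex, the rest of 3R offers no comparison for them. Copies of a 7SL RNA gene are alike in sequence, the sources used here do not say how reads that fit more than 1 copy were treated, and the part of this in the peaks was not tested. The main values on number, score, width, spacing and gene ends are also given below without this pair.

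**Figure D2:**
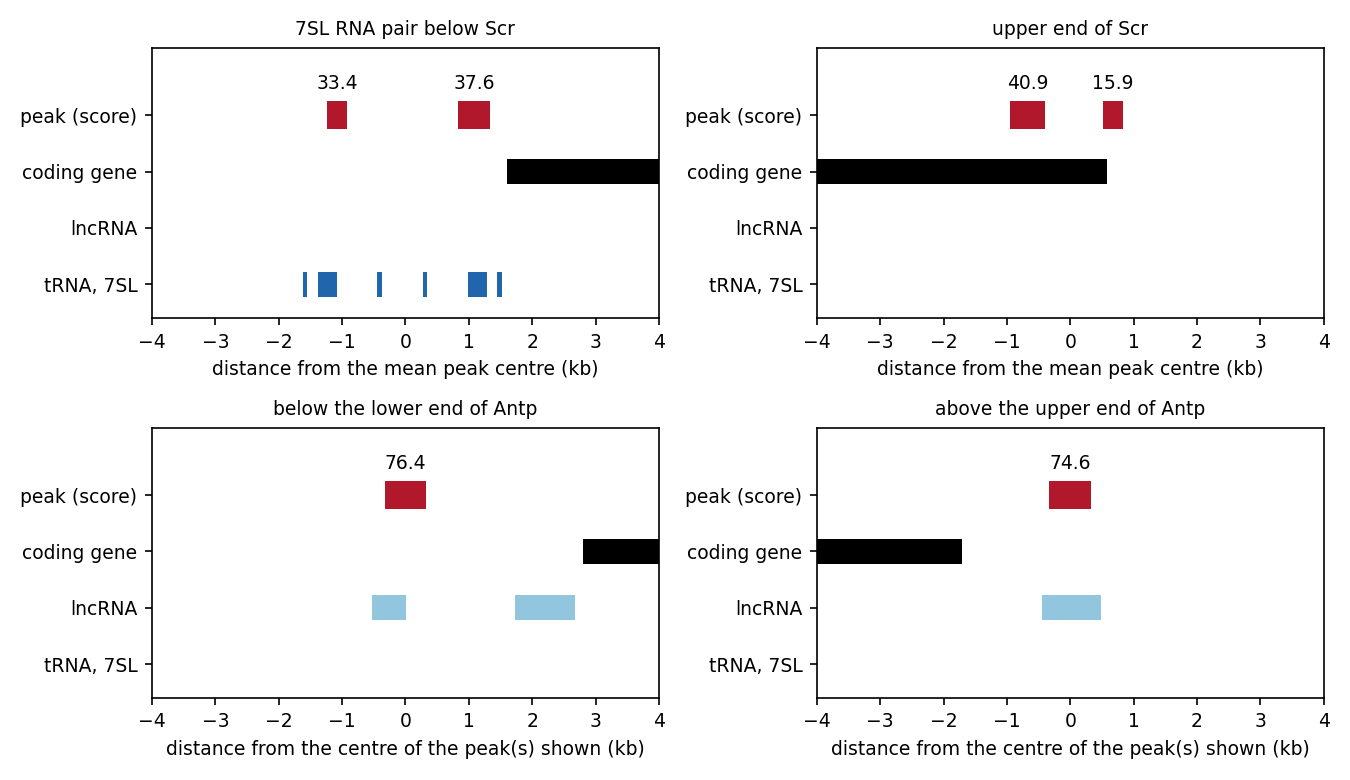
Stretches of 8 kb around the peaks at the 7SL RNA genes, the upper end of Scr and both sides of Antp, with distance in kb from the centre of the peak or the mean centre of the pair. Peaks are drawn in red with their score, and the scores of 33.4 and 37.6 stand over 7SL RNA genes while those of 76.4 and 74.6 stand over lncRNA genes outside Antp.

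The other members had no peak nearby. lab, needed for a segment of the head and for cells of the midgut, was 83.8 kb from the nearest peak. pb, which acts in the adult mouthparts, was 20.3 kb away from it. Dfd, which specifies maxillary and mandibular segments, was 17.9 kb from the nearest peak, which was the first of the 7SL RNA pair. ftz, which lies between Scr and Antp and acts in the embryo to set up alternate segments, was 14.1 kb from the nearest peak, at Scr. The microRNA genes of the complex, looked up after the peaks had been seen, were 10.7 kb (mir-10) and 13.7 kb (mir-993) from a peak. Of the 108 kb at the lab end of the interval, before the first peak, all was free of peaks. The gap that ends there was 288.0 kb long and began outside the complex, and it ranked 12 among the 693 gaps of 3R.

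Of 12 further genes of the interval, 2 had a peak inside or within 5 kb, and it was the same peak. It ran from 2588088 to 2588374, was 287 bp wide and scored 10.6. It overlapped Ama, which encodes a secreted cell adhesion protein of the immunoglobulin family, by 60 bp, lay in lncRNA:CR45593 with its full width, and was 2.9 kb from bcd, the maternal determinant of the anterior pole. zen and zen2, homeodomain genes of the early embryo, and the cuticle protein genes Edg84A and Ccp84Aa to Ccp84Ag had none within 5 kb.

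Against all genes of the arm, having a peak was not unusual for the members. The 2 of 6 members with a peak inside or within 5 kb compare with 846 of 3392 other protein-coding genes of 3R (24.9%). Long genes meet peaks more often: of 448 other coding genes of at least 10 kb, 223 (49.8%) had a peak, and of the 5 members of that length 2 did. Per length, with the flanks of 5 kb counted in, Scr had 1.09 peaks per 10 kb and Antp 0.266. The value for Scr counts 4 peaks, of which 2 are the 7SL RNA pair outside the gene. Without that pair it would be lower. In the bithorax complex Ubx had 1 peak, with a score of 15.6, and abd-A had 2, with scores up to 10.3. Abd-B, of which the transgene is an added copy, had 31 peaks, or 5.63 per 10 kb, and scores up to 173. Of 15 other homeodomain genes of 3R, 9 had a peak. hth, whose product is a Hox cofactor, had 7 peaks, or 0.493 per 10 kb, with scores up to 35.3. ro, which acts in the eye, had 3 peaks with scores up to 25.4. Of these 18 genes, Abd-B alone had a peak with a higher score than the highest at Scr (40.9) or Antp (76.4).

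**Figure D3:**
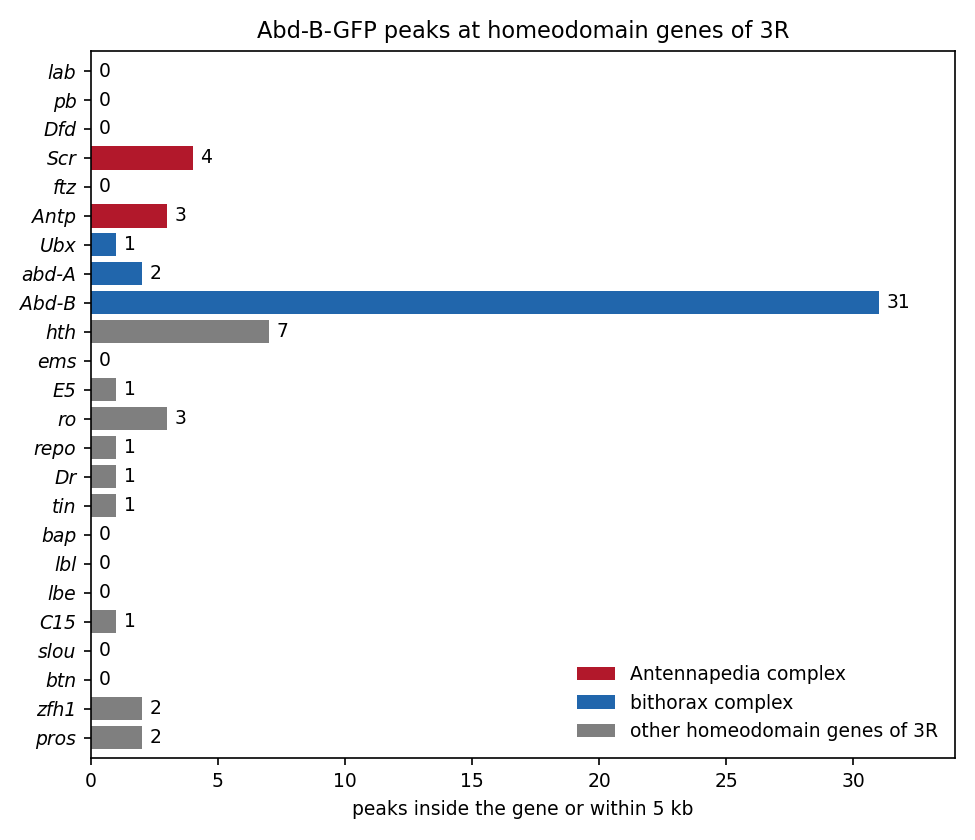
Number of peaks inside each gene or within 5 kb of it, for the members of the Antennapedia complex, the bithorax complex and 15 other homeodomain genes of 3R. Scr has 4 and Antp 3, the other 4 members have 0, and Abd-B has 31.

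In number of peaks as deposited, the complex was close to the rest of the arm. Among stronger peaks, of which it held few, its density was the higher. It held 22.9 peaks per Mb, against 25.0 per Mb on the rest of 3R, a ratio of 0.915 with a 95% exact binomial interval of 0.393 to 1.81. Intervals here cover counting error only and take peaks as independent. The ratio was 1.58 with the 1474 highest-scoring peaks of the series (6 in the complex) and 3.35 with the 737 highest-scoring (5 in the complex). Without the 7SL RNA pair it was 0.686 for all peaks and 2.01 for the 737 highest-scoring, of which the complex then held 3. No interval is given for these ratios. The interval of 0.393 to 1.81 covers the counting error of all 8 peaks. It does not apply to the ratios of 1.58, 3.35 and 2.01, which rest on 6, 5 and 3 peaks. Of 78 other windows of 350 kb on 3R, 34 (43.6%) held at least 8 peaks, and 53 (67.9%) at least the 6 left without the pair. Their median was 7 and their range 0 to 67, the highest being in the bithorax complex. Peaks covered 0.99% of the complex and 1.04% of the rest of 3R. From the first 7SL RNA peak to the last peak, a stretch of 181 kb whose ends were set by the peaks themselves, there were 38.7 peaks per Mb.

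In score, the complex stood above the typical peak of the arm. The 8 scores were 10.6, 33.4, 37.6, 40.9, 15.9, 76.4, 7.63 and 74.6 in order of position, with a median of 35.5. On the rest of 3R the median was 13.2, with quartiles at 10.3 and 18.8. Without the 7SL RNA pair the median of the complex was 28.4. Of the 8 peaks, 6 were among the 1474 with the highest scores in the list, against 43.4% of the peaks on the rest of 3R. As many as 5 were among the 737 highest-scoring, against 17.1%. The exact binomial interval for the 6 of 8 was 34.9% to 96.8%, which includes the 43.4%. For the 5 of 8 it was 24.5% to 91.5%, which lies above the 17.1%. Without the 7SL RNA pair, 4 of 6 and 3 of 6 were in these classes. No interval is given for these, so whether the 3 of 6 stands apart from the 17.1% is not known. Of the 78 other windows, 3 (3.85%) held at least 5 peaks of the smaller class, but 17 (21.8%) held at least the 3 that the complex keeps without the 7SL RNA pair. The median over the other windows was 1. A median score of 35.5 or more was seen in 1 of the 76 other windows with any peak, which held 2 peaks, and a median of at least 28.4 in 3 of them. The scores of the complex ranged from 7.63 to 76.4, and those of the rest of 3R from 6.2 to 177.

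**Figure D4:**
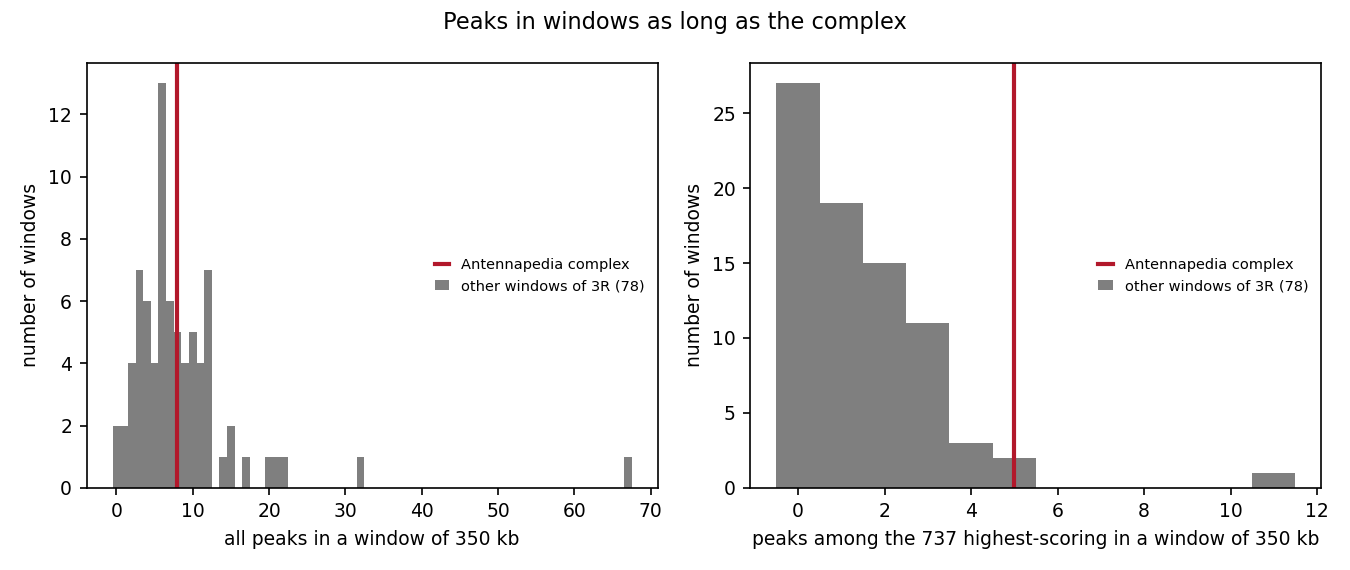
Number of windows of 350 kb on 3R by the peaks they hold, for all peaks (left) and for the 737 peaks of highest score in the list (right). The red line marks the Antennapedia complex, at 8 peaks among 78 other windows with a median of 7, and at 5 among windows with a median of 1. The count of 3 without the 7SL RNA pair is not drawn.

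Width went with score. The widths of the 8 peaks had a median of 413 bp and a range of 200 to 661 bp, against a median of 344.5 bp and a range of 200 to 2991 bp on the rest of 3R. Without the 7SL RNA pair the median of the complex was 432.5 bp. The 4 highest-scoring peaks of the complex, at 76.4, 74.6, 40.9 and 37.6, were also its 4 widest. The exception was the first 7SL RNA peak, which was narrow (308 bp) for its score of 33.4. Within the 737 peaks of highest score, the 5 of the complex had a median width of 549 bp, against 557 bp on the rest of 3R. Score and width come from the same peak calls and are not separate measurements.

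**Figure D5:**
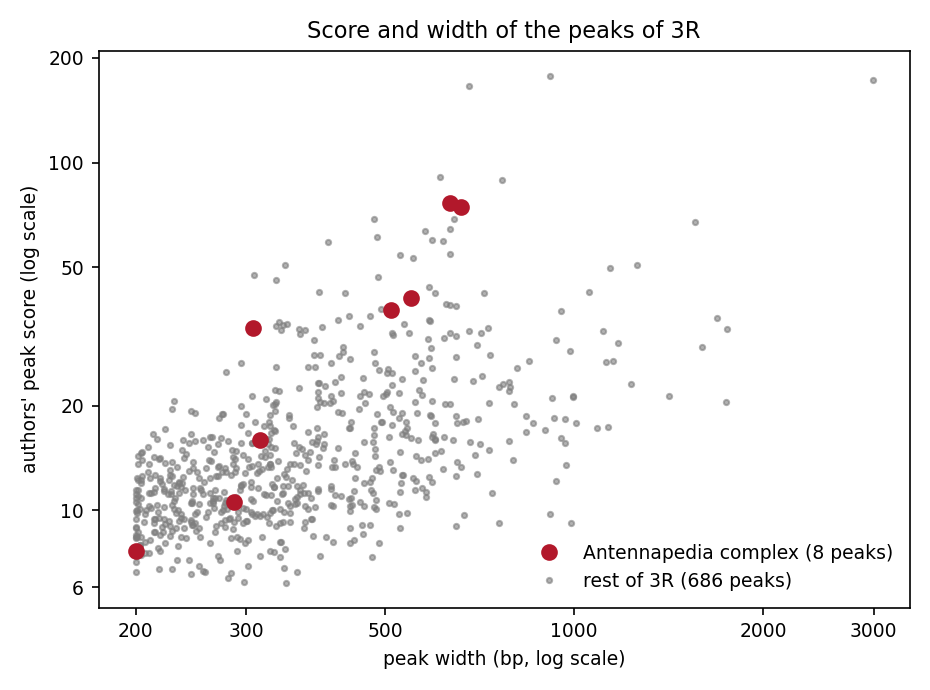
Width in bp and the authors' score of each peak of 3R, both on log axes. The 8 peaks of the Antennapedia complex reach from 200 bp with a score of 7.63 to 661 bp with a score of 74.6, among 686 peaks on the rest of 3R.

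Peaks of the complex lay in pairs or alone. The gaps to the nearest other peak ranged from 0.919 to 57.6 kb with a median of 15.6 kb, against a median of 4.83 kb on the rest of 3R. Of the gaps in the complex, 4 were 0.919 or 1.75 kb and 4 were 29.4 kb or more, so none lay near its median. Of the 8 peaks, 4 (50.0%, 95% exact interval 15.7 to 84.3) had another peak within 10 kb, against 61.8% on the rest of 3R. These 4 were the pairs at the 7SL RNA genes and at the upper end of Scr, 25.6 kb from each other. Without the 7SL RNA pair the share was 33.3%. Among the 1474 highest-scoring peaks the share was the higher in the complex, at 4 of 6 (66.7%), against 39.3% on the rest of 3R. Those 4 were the same pairs, that at the 7SL RNA genes included. Of all 8 peaks, the 4 outside the pairs had no neighbour within 20 kb. The longest gap inside the complex, 77.3 kb, ran from the weak peak inside Antp to the peak beyond its upper end.

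By annotation, all 8 peaks overlapped some gene (95% exact interval 63.1 to 100), against 82.7% on the rest of 3R, which the interval includes. Protein-coding genes were overlapped by 4 of 8 (95% exact interval 15.7 to 84.3), against 80.0%, which the interval includes. Both peaks of the 7SL RNA pair were among those that overlapped no coding gene. Genes of long non-coding RNAs were overlapped by 3 of 8, namely the peaks on either side of Antp and the peak at Ama, against 4.23%. The complex is rich in such genes: they cover 11.1% of it, against 2.63% of the rest of 3R. Coding genes cover 61.7% of it, against 71.1%. The midpoints of 6 of 8 peaks (75.0%, 95% exact interval 34.9 to 96.8) lay within 1 kb of the end of an annotated gene of any kind, against 48.8% on the rest of 3R. Without the 7SL RNA pair it was 66.7%. With ends of protein-coding genes alone it was 3 of 8 peaks (37.5%), against 43.7% on the rest of 3R, so the direction depended on the genes counted.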

How the data were processed

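The single peak list of the series was analysed. Its header gives GFF version 3 and FlyBase release 5, and its source field gives MACS. Per the submitters' processing notes, BWA, MACS2, CASAVA (1.7.0.2, 1.7.0.3) and the build BDGP5 were used, with no parameters stated. The deposited score has no stated scale and served here to rank, filter and describe peaks of the list. Neither the control libraries nor any pooling of replicates is stated. The other deposited values are positions. Deposited starts count from 0, the lowest in the file, so 1 was added.

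Genes came from the RefSeq table (release 6), placed with the offset 4174278. As a check, 49.1% of the 3R peaks had their midpoint within 1 kb of a gene end with this offset, and 30.1 to 34.7% with 10 offsets shifted by 5 to 100 kb. The table has no strand, so gene ends were used in place of the planned gene starts. No exon structure or sequence was used. The extent of 3R was the end of its last peak.

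Counts were made with pandas 2.3.3, numpy 2.4.6 and scipy 1.17.1 under Python 3.11.15, drawn with matplotlib 3.10.9, and tested on simulated peaks. Binomial intervals are exact (Clopper-Pearson). Alternatives were the 1474 and 737 highest-scoring peaks, merging under 1 kb, other distances, and leaving out the bithorax complex (Ubx to Abd-B with 100 kb on either side). Members and gene lists were chosen with earlier results of these data known. Every peak and member is named, and other genes come from lists.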

Additional observations from a re-analysis of the deposited data

How the results depend on the processing

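No paired analysis was possible because values per library are not in the list, and for the same reason no replicate was left out. The density ratio of the complex to the rest of 3R, 0.915 as deposited, was 1.58 with the 1474 highest-scoring peaks and 3.35 with the 737 highest-scoring, of which the complex held 5 (14.3 per Mb against 4.26). Among these it was 2.01 without the 7SL RNA pair. The cause was not tested. It was 0.969 with peaks under 1 kb apart merged, 1.0 with the bithorax complex left out of the rest, and 0.686 with all peaks but that pair. Of 40 alternatives, 35 moved a value by less than its spread or interval, which are wide with 8 peaks. The others were this ratio among the 737 highest-scoring peaks, with and without the pair, although its interval is that for all peaks. They also included the share of other windows with as many of the 737 (3.85%, and 21.8% without the pair). Within the gene alone, the counts at Scr (2 in place of 4) and Antp (1 in place of 3) moved as well. At lab, pb, Dfd and ftz the count within the gene alone could not move, as it was 0 with 5 kb on either side. These are among the 35. Scr and Antp were the only members with a peak under each flank tried and without the 7SL RNA pair. The share of peaks with a neighbour within 10 kb was 33.3% without that pair. Among the 1474 highest-scoring peaks it was 66.7% (4 of 6 peaks), where it exceeded that of the rest of 3R (39.3%). The alternatives without the 7SL RNA pair, with coding gene ends and with shifted windows (44.9% with at least 8 peaks) were chosen after seeing the data.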
